A study of Bos taurus with 6 samples.

Results

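The nuclear genes of the mitochondrial respiratory chain were examined in bovine cumulus cells cultured with or without FID. Members were the array probes whose platform gene symbol began with NDUFA, NDUFB, NDUFC, NDUFS, NDUFV, UQCR, COX4, COX5, COX6, COX7, COX8 or ATP5, or was SDHA, SDHB, SDHC, SDHD or CYC1. The rule used names and no measured value. It took 130 of 43794 probes and 85 of 15229 gene symbols, of which 129 probes and 84 symbols passed the filter on dim probes. Of the 85 symbols, 78 encode subunits of the 5 complexes, namely 36 of complex I, 4 of complex II, 8 of complex III, 15 of complex IV and 15 of complex V. The other 7 are assembly factors, paralogues and genes that share only the start of the name, and they are described apart. COX6A2, the heart and muscle isoform of a complex IV subunit, was the member not tested, since it exceeded background on 0 of 6 arrays in either condition. UQCRFS1 had no probe under its symbol, COX4I1 was listed under its older name COX4, and none of the subunits encoded by mitochondrial DNA was found under its name.

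The respiratory chain sits in the inner mitochondrial membrane. Complex I takes electrons from NADH and complex II takes them from succinate, complex III passes them from ubiquinol to cytochrome c, and complex IV passes them to oxygen. Complexes I, III and IV pump protons, and complex V, the ATP synthase, lets the protons back through its membrane ring to make ATP. In the follicle, cumulus cells supply the oocyte with pyruvate and other metabolites through gap junctions, and a rise in cyclic AMP in these cells is part of the response to gonadotrophins before ovulation.

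The study set FID-treated cells against untreated cells. The FID group was cumulus cells of cumulus-oocyte complexes matured in medium with 100 µM forskolin, an activator of adenylyl cyclase, 500 µM IBMX and 50 µM dipyridamole, both of which inhibit phosphodiesterases. The control group had the same medium, with estradiol, serum and pyruvate, and none of the 3 agents. All complexes were from Holstein cows of unstated age, from abattoir ovaries, and were cultured in groups of up to 10. The labels name the control 6 h, while the protocol gives maturation for 22 to 24 h, so a difference in culture time, if there was one, cannot be told apart from FID. Each of 3 biological replicates, numbered 1, 2 and 4, was hybridised on a pair of 2-colour arrays with exchanged dyes.

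Ratios below are log2 of FID over control, as the fitted mean of 3 replicates with its standard error. Levels are log2 normalised intensities, which compare the conditions for 1 probe and say nothing of one gene against another. Per array, the share of probes above the negative controls followed the dye. FID cells had 51.1% to 63.1% in Cy5 and 80.0% to 84.7% in Cy3, and control cells 58.4% to 71.2% in Cy5 and 75.1% to 86.5% in Cy3. Of the 77 tested subunits, 75 exceeded the negative controls on all arrays in both conditions, and no member was saturated. Of 15 cumulus and granulosa cell markers, 14 were tested and exceeded background on all arrays, and their summed intensity was 141609 to 155679 in FID and 141253 to 162410 in control. Much of that sum came from INHA, INHBA and SERPINE2, which were saturated in FID on 2, 4 and 2 of 6 arrays and in control on 0, 1 and 2. The single markers went apart, from -2.36 ± 0.29 for the keratin KRT8 to 1.71 ± 0.24 for AMH, the anti-Müllerian hormone. None was past limma's test, and 4 were lower and 4 higher in the 6-array fit described below. That fit gave 11.9% of all genes lower and 8.85% higher. Oocyte markers differed between replicates, with a sum over 18 tested of 19 markers of 22039, 60663 and 2633 in FID cells of replicates 1, 2 and 4, against 8183, 4394 and 2348 in control cells. All 18 had a ratio above 0, and 5 of them exceeded background on every array. NOBOX, the remaining oocyte marker, was not tested. The part of oocyte RNA in the ratios below was not tested, and replicate values are given so that replicate 2 can be read apart. In these bulk samples, fewer cells of a type and less RNA per cell cannot be told apart.

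Transcripts of the respiratory chain did not share 1 direction. Among the 77 tested subunits, 48 had a ratio below 0 and 29 above 0, where all 12381 tested genes had 6016 below and 6365 above. The median ratio was -0.14, against 0.01 over all tested genes. The median of the subunits was 0.01, -0.25 and -0.16 in replicates 1, 2 and 4, and -0.04 in the fit without replicate 2 and -0.05 without replicate 4. NDUFB9 was the only subunit past the threshold of limma's test (adjusted p under 0.05 over all probes), and it fell. Across all tested genes 2.36% passed, with 1.29% lower and 1.07% higher in FID, and across all tested probes 1.73% passed. Direction was shared by all 3 replicates for 24 subunits below 0 and 13 above 0, where 25.0% of all genes lay below 0 in all 3 and 25.0% above. At an unadjusted p under 0.05 there were 13 subunits lower and 7 higher, where all genes gave 16.1% lower and 12.5% higher. The share of subunits beyond that value was thus close to the share of all genes. A ratio below -0.5 was found for 16 of the 77 subunits, where 15.8% of all genes lay as low, and a ratio above 0.5 for 5 subunits, where 13.1% lay as high.

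A second fit, called the block fit, kept the 6 arrays apart, modelled the dye and treated each replicate as a block. In it 7 subunits were lower and 1 was higher, where 20.8% of all genes passed, 11.9% lower and 8.85% higher. The 7 lower subunits were NDUFS1, NDUFB1, NDUFB9, NDUFA9 and NDUFC2 of complex I, COX7C of complex IV and ATP5J of complex V, and the higher one was NDUFA3 of complex I. The FID and control levels of the 3 replicates did not overlap for 28 of the 84 tested members, 19 lower and 9 higher in FID, against 29.8% of all genes, 16.2% lower and 13.6% higher. On all 6 arrays 16 members lay below 0 and 4 above, where all genes gave 15.4% and 12.5%.

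The complexes differed in where their medians lay. The median ratio was -0.26 over 36 subunits of complex I, -0.12 over 4 of complex II, -0.21 over 8 of complex III, -0.14 over 14 of complex IV and 0.11 over 15 of complex V. Without replicate 2 these medians were -0.15, 0.14, -0.09, -0.07 and 0.13 for complexes I to V, so that complex II turned sign. Without replicate 4 they were -0.20, -0.24, -0.14, -0.02 and -0.01, with complex V turned, and without replicate 1 they were -0.35, 0.09, -0.24, -0.23 and 0.01. In complex I the median was -0.05, -0.40 and -0.28 in replicates 1, 2 and 4, and in complex V it was 0.24, -0.08 and 0.10. Complex V therefore stood above complex I within each replicate, by 0.29, 0.32 and 0.37 (mean 0.33 ± 0.04, SD, n = 3). That gap is larger than its spread between replicates, which is taken over the same genes each time. It is smaller than the SD of the fitted ratios over genes, 0.48 in complex I and 0.45 in complex V. Between the medians of the fitted ratios the gap was 0.37, with 0.36 without replicate 1, 0.29 without replicate 2 and 0.19 without replicate 4, while the level of either complex against 0 varied with the replicate.

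Complex V also stood above complex III in each replicate, by 0.27, 0.19 and 0.23, and above complex IV by 0.10, 0.15 and 0.34. Complex IV stood above complex I by 0.19, 0.17 and 0.03, and complex III above complex I by 0.02, 0.12 and 0.14. Differences that involve complex II, and the one between complexes IV and III, changed sign between replicates. No test was run on these medians, which rest on members that share samples.

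With median centring of each array in place of loess, complex I had a median of -0.49 and complex V one of -0.07, so the sign for complex V turned while the gap between them, 0.42, remained. The same scaling divided the called probes into 207 higher and 473 lower, against 249 higher and 309 lower with loess. On the arrays with FID in Cy5 alone the median of complex V was -0.10, and on those with FID in Cy3 alone it was 0.15.

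**Figure D1:**
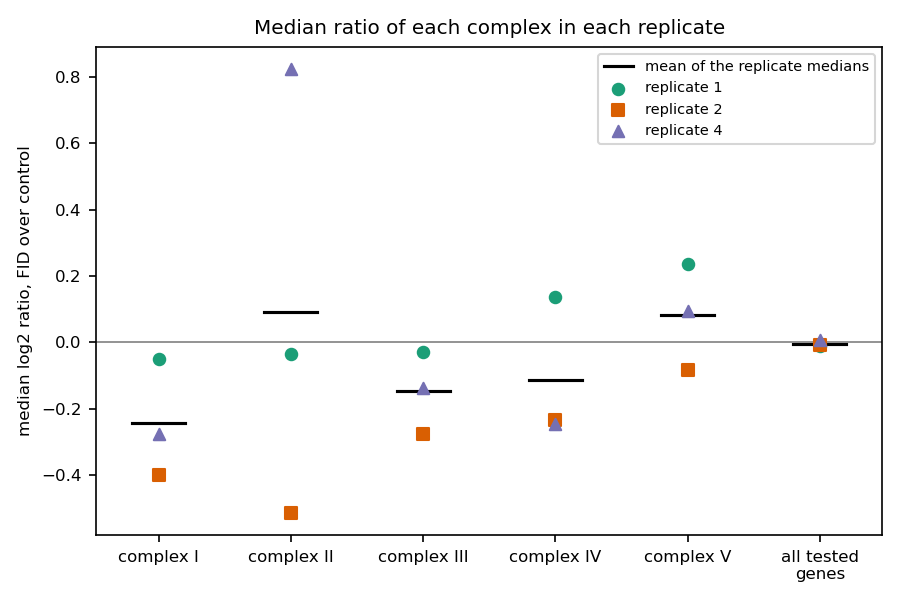
Median log2 ratio of FID over control (vertical axis) of the tested subunits of each complex and of all tested genes, with a point for each of the 3 replicates and a bar at their mean. Complex V lies above complex I in every replicate, complex II spreads between -0.51 and 0.82, and all tested genes lie near 0.

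NDUFB9, an accessory subunit at the far end of the membrane arm of complex I, was the subunit that fell. Its level was 10.91, 11.30 and 11.08 in FID cells of replicates 1, 2 and 4, against 11.90, 12.20 and 12.17 in control cells. Every FID value lay below every control value. The ratio was -0.99 ± 0.09 (SE, n = 3), or 1.98-fold lower, with limma's adjusted p at 0.0476, and it was below 0 on 6 of 6 arrays. A separate, dimmer probe of the gene gave -1.08 ± 0.13 (adjusted p = 0.0543), with -0.97, -0.91 and -1.37 in the replicates. The call was lost in each fit without 1 replicate, with the authors' deposited ratios, with marked spots kept and without background correction, where no probe at all passed. Over 15 alternative settings its ratio lay between -1.24 and -0.90 and its adjusted p between 0.00335 and 0.248.

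NDUFS1 and NDUFB1, the other 2 complex I subunits at the low end, had lower ratios than NDUFB9 and a wider spread between replicates. NDUFS1 is the large iron-sulfur subunit of the arm that oxidises NADH. Its level was 10.14, 8.84 and 9.56 in FID cells, against 10.56, 10.55 and 10.92 in control cells. The groups did not overlap, and the ratio was -1.16 ± 0.29 (limma adjusted p = 0.123, block fit 0.0122). All 3 of its probes were low, at -1.16, -1.06 and -1.15. NDUFB1, a small accessory subunit of the membrane arm, had a level of 13.73, 13.23 and 13.11 in FID cells, against 14.18, 14.44 and 14.58 in control cells. These groups did not overlap either, and the ratio was -1.04 ± 0.24 (adjusted p = 0.107, block fit 0.00964). In both genes replicate 1 had the smallest difference, -0.42 for NDUFS1 and -0.45 for NDUFB1.

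NDUFA3, NDUFA11 and NDUFB11, accessory subunits of the membrane arm, stood at the high end. NDUFA3 had a level of 12.46, 12.38 and 12.65 in FID cells, against 11.90, 11.86 and 11.09 in control cells, without overlap. The ratio was 0.88 ± 0.26 (adjusted p = 0.158, block fit 0.0327), and a second probe gave 0.78 ± 0.17. NDUFA11 had 0.59 ± 0.19, with 0.21, 0.53 and 1.02 in the replicates, and NDUFB11, an X-linked gene in human, had 0.54 ± 0.11, with 0.73, 0.36 and 0.54 (adjusted p = 0.181 and 0.0968). All 3 genes were higher on 6 of 6 arrays and none passed the test. Low and high members thus occurred side by side in the same arm of the same complex.

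**Figure D2:**
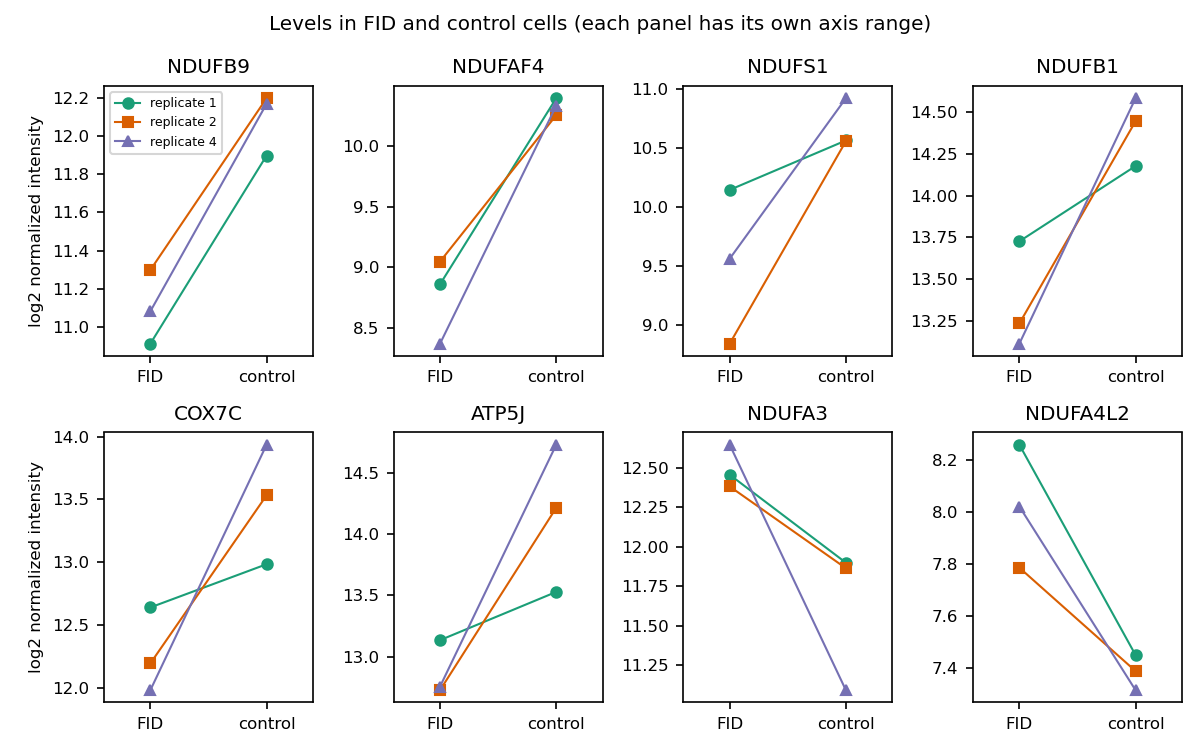
Log2 normalised intensity in FID cells (left) and control cells (right) for 8 members, with a line joining the conditions within each replicate and an axis range of its own in each panel. NDUFB9 moves by nearly the same step in the 3 replicates, between -1.08 and -0.90, while NDUFS1, NDUFB1, COX7C and ATP5J have a shorter step in replicate 1.

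The matrix arm of complex I carries the flavin and the iron-sulfur clusters, and the membrane arm moves the protons. This division was added after the values were seen. The median ratio was -0.27 over 15 matrix arm subunits and -0.16 over 20 membrane arm subunits, with NDUFAB1, the acyl carrier protein, found in both arms and counted in neither. All 3 replicates were below 0 for 7 of the 15 and above 0 for 1, and for 7 and 4 of the 20. Over all genes each of these shares was 25.0%. Among the 6 catalytic core subunits on the array, which do the electron transfer and are shared with bacteria, the median was -0.07 and 3 lay below 0. Among the 30 accessory subunits, which were added in eukaryotes and stabilise the enzyme, it was -0.26 and 22 lay below 0. The core median was 0.07, -0.46 and 0.13 in replicates 1, 2 and 4 and 0.12 without replicate 2, where the accessory median was -0.23, so the sign of the core rested on replicate 2. Core subunits ran from -1.16 for NDUFS1 to 0.30 for NDUFS7, and the 3 highest complex I subunits were accessory.

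Besides NDUFS1, the core held NDUFV1, the flavoprotein that binds NADH, at 0.27 ± 0.24, with -0.19, 0.15 and 0.86 in replicates 1, 2 and 4. Its replicates disagreed in sign, unlike those of NDUFS1. The next 4 core subunits, members by symbol like the others, were chosen for description after their values were seen. NDUFV2, the partner of NDUFV1, had -0.54 ± 0.30, with 0.25, -0.97 and -0.90. NDUFS7, which holds the last iron-sulfur cluster before ubiquinone, had 0.30 ± 0.10 on its brightest probe, with another of its 4 probes at -0.04. NDUFS8 had 0.13 ± 0.13 and NDUFS3 -0.27 ± 0.20. Of the 6 core subunits 4 had mixed signs over the replicates, while NDUFS1 was low and NDUFS7 high in all 3. The NDUFS7 ratio was below 0 on the 3 arrays with FID in Cy5 and above 0 on the 3 with FID in Cy3. Neither a shared direction nor opposed ones can be read from these values.

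Among the accessory subunits, NDUFA9, which lies near the ubiquinone site, had a level of 11.06, 10.64 and 10.72 in FID cells, against 11.72, 11.93 and 11.38 in control cells. Its groups did not overlap, and the ratio was -0.87 ± 0.17 (adjusted p = 0.0908, block fit 0.00843). NDUFB5 had -0.92 ± 0.34, with a wide span of -0.22, -0.75 and -1.79 in the replicates. NDUFC2, in the membrane arm, had -0.48 ± 0.11, with -0.50, -0.67 and -0.28 (block fit 0.0370). Some subunits were near 0 in replicate 1 and low in the other 2 replicates. Like the other genes of this paragraph, they were chosen for description after their values were seen. NDUFS4, a subunit lost in some inherited complex I deficiencies, had 0.13, -0.87 and -1.10 in replicates 1, 2 and 4, NDUFA1 had 0.15, -0.93 and -0.82, and NDUFA5 had -0.07, -0.87 and -0.99. At the other extreme NDUFA8, NDUFA10, NDUFA13 and NDUFB8 had fitted ratios between -0.03 and 0.01.

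**Figure D3:**
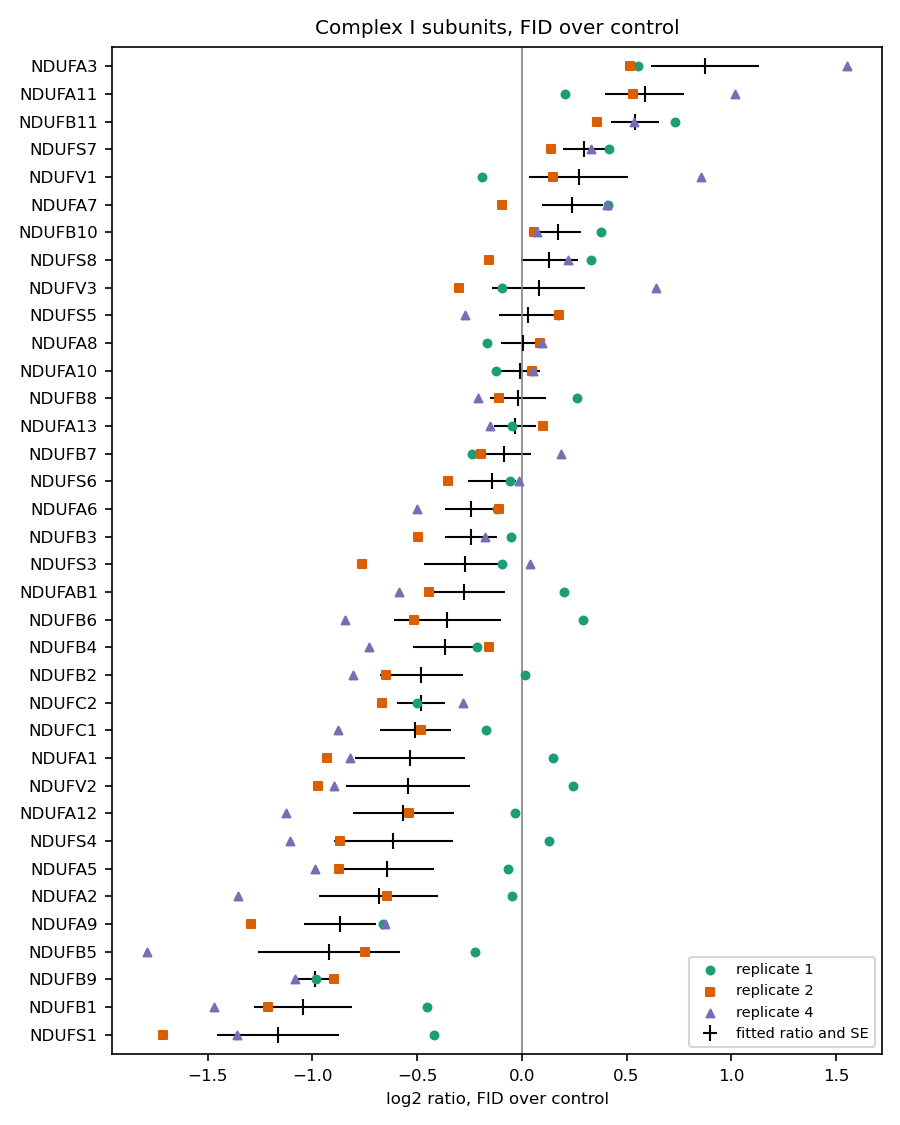
Log2 ratio of FID over control (horizontal axis) of the 36 complex I subunits, ordered by fitted ratio, with coloured points for replicates 1, 2 and 4 and a black bar for the fitted ratio and its standard error. The ratios run from -1.16 for NDUFS1 to 0.88 for NDUFA3, and replicate 1 lies nearest 0 for NDUFS1, NDUFB1 and NDUFB5.

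Complex II, which is also an enzyme of the citric acid cycle, was the complex whose median differed most between replicates. The SD over the replicate medians was 0.68, against 0.18 in complex I, 0.12 in complex III, 0.22 in complex IV and 0.16 in complex V. The complex II median rests on 4 subunits, the fewest of any complex. SDHA, the flavoprotein that oxidises succinate, had a level of 11.97, 11.59 and 12.16 in FID cells, against 12.63, 12.33 and 11.28 in control cells. Its ratio was -0.65 and -0.74 in replicates 1 and 2 and 0.88 in replicate 4. SDHC, a membrane anchor, followed the same pattern with -0.43, -0.53 and 0.76, and its other probe did likewise with -0.45, -0.39 and 0.71. SDHB, the iron-sulfur subunit, had 0.37, -0.19 and 0.92, and SDHD, the other anchor, had 0.50, -0.49 and -0.52. Mixed signs over the replicates were found for 6200 of all 12381 tested genes, and no subunit of complex II had 1 direction in all 3 replicates. The fitted ratios, -0.17 ± 0.39 for SDHA, 0.36 ± 0.24 for SDHB, -0.07 ± 0.31 for SDHC and -0.17 ± 0.26 for SDHD, average these opposed values. In limma 0 of the 4 passed, 0 had an unadjusted p under 0.05, and 0 passed in the block fit. Over all genes these shares were 2.36%, 28.6% and 20.8%. A second, much dimmer SDHA probe gave -0.06 ± 0.08.

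Complex III split by subunit. UQCRB, which helps form the ubiquinone site, had a level of 11.61, 11.21 and 11.42 in FID cells, against 11.71, 11.94 and 12.41 in control cells, and a ratio of -0.61 ± 0.21 (adjusted p = 0.198). UQCRQ, a small membrane subunit, had -0.52 ± 0.22, with -0.05, -0.48 and -1.03 in the replicates. The large core proteins UQCRC1 and UQCRC2, which face the matrix and are related to processing peptidases, had -0.44 ± 0.21 and -0.45 ± 0.14. These 4 were below 0 in all 3 replicates. A second UQCRC1 probe gave -0.50 ± 0.09 (adjusted p = 0.0773, block fit 0.0224), closer to the threshold than the brighter one.

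CYC1, cytochrome c1, which hands electrons to cytochrome c, lay on the other side of 0. Its level was 11.43, 10.93 and 11.05 in FID cells, against 10.89, 10.83 and 9.89 in control cells, and the ratio was 0.60 ± 0.23 (adjusted p = 0.246). The groups did not overlap, and most of the difference came in replicate 4, at 1.16. UQCR, now named UQCR11, had 0.47 ± 0.30, of which 1.26 was in replicate 1 and 0.02 and 0.14 in replicates 2 and 4. UQCR10 had 0.07 ± 0.11. In limma 0 of the 8 subunits passed, 2 had an unadjusted p under 0.05, both lower, and 0 passed in the block fit. Over all genes 16.1% were lower and 12.5% higher at that p, and 20.8% passed in the block fit.

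In complex IV the low end was held by small subunits expressed in all tissues. COX7C had a level of 12.64, 12.19 and 11.98 in FID cells, against 12.98, 13.53 and 13.94 in control cells. The groups did not overlap, and the ratio was -1.21 ± 0.35 (adjusted p = 0.152, block fit 0.0191), with -0.34, -1.34 and -1.96 in the replicates. COX6C had 0.32, -0.50 and -1.27 and COX7A2 had 0.41, -0.44 and -1.36, each with replicate 1 on the other side of 0. A second COX7A2 probe gave 0.27, -0.43 and -1.33. The probes of COX7A2 thus repeated the disagreement between replicates.

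The other subunits expressed in all tissues were closer to 0. COX4 (COX4I1), the largest nuclear subunit and a site where ATP regulates the enzyme, had -0.43 ± 0.12, with -0.24, -0.66 and -0.40, and was below 0 on 6 of 6 arrays. COX5A had -0.42 ± 0.14 on its brightest probe, while its other 3 probes gave 0.02, -0.21 and -0.07, so its value depended on the probe. COX6A1, the isoform of most tissues, had -0.13 ± 0.11. NDUFA4, once counted in complex I and now as a complex IV subunit, had -0.14 ± 0.14.

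The high end held COX8A at 0.36 ± 0.17, COX8B at 0.31 ± 0.11 and COX7A1 at 0.29 ± 0.13, all above 0 in the 3 replicates. The COX8B ratio differed with the dye. In replicates 1, 2 and 4 it was -0.11, -0.19 and 0.38 with FID in Cy5, and 0.82, 0.45 and 0.53 with FID in Cy3. COX8B and COX7A1 are the isoforms of heart and skeletal muscle. For COX7A1 the replicates had 0.55, 0.11 and 0.22, and for its counterpart of other tissues, COX7A2, the fitted ratio was -0.47 ± 0.38. Of the 14 tested subunits 0 passed in limma and 4 had an unadjusted p under 0.05, 3 lower and 1 higher, while 1 was lower in the block fit. Over all genes 16.1% were lower and 12.5% higher at that p, and 11.9% were lower in the block fit.

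In complex V 8 of 15 subunits had a ratio above 0, against 11 of 36 in complex I and 6365 of all 12381 tested genes. The complex V count was thus close to the share of all genes, and ATP5J stood far below the rest. ATP5J (now ATP5PF), known as a coupling factor, is part of the peripheral stalk that holds the catalytic head still. Its level was 13.13, 12.73 and 12.76 in FID cells, against 13.53, 14.22 and 14.73 in control cells. The groups did not overlap, and the ratio of -1.29 ± 0.35 (adjusted p = 0.139, block fit 0.0214) was the lowest of all 77 tested subunits. The other 3 peripheral stalk subunits had -0.16 ± 0.19 for ATP5F1, -0.14 ± 0.11 for ATP5H and 0.21 ± 0.21 for ATP5O, named here after their values were seen.

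In the catalytic head, ATP5A1 and ATP5B, the alpha and beta subunits that make ATP, had -0.00 ± 0.09 and 0.12 ± 0.13. Replicate ratios were -0.02, -0.08 and 0.10 for ATP5A1 and -0.06, 0.04 and 0.38 for ATP5B. ATP5C1, the gamma subunit that turns inside the head, had -0.30 ± 0.24, and ATP5D, the delta subunit beside it, had 0.26 ± 0.08. Although the ATP5D replicates were alike at 0.24, 0.26 and 0.28, its ratio was below 0 on the 3 arrays with FID in Cy5 and above 0 on the 3 with FID in Cy3.

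The c ring, which turns as protons pass, is made of 1 protein encoded by 3 genes that differ in their import sequences. ATP5G2 had a level of 12.93, 12.71 and 13.40 in FID cells, against 12.37, 12.60 and 11.77 in control cells, and a ratio of 0.77 ± 0.34 (adjusted p = 0.288). ATP5G1 had 0.11 ± 0.11 and ATP5G3 had -0.27 ± 0.12. Only ATP5G2 and ATP5G3 kept 1 sign over the replicates, with 0.57, 0.11 and 1.63 for ATP5G2 and -0.16, -0.49 and -0.16 for ATP5G3, and they lay on opposite sides of 0. In the membrane part, ATP5I, which takes part in pairing synthases into dimers, had 0.49 ± 0.14, with 0.63, 0.18 and 0.66 (adjusted p = 0.148). Of the 15 subunits 0 passed in limma and 3 had an unadjusted p under 0.05, 1 lower and 2 higher, while 1 was lower in the block fit. Over all genes 16.1% were lower and 12.5% higher at that p, and 11.9% were lower in the block fit.

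**Figure D4:**
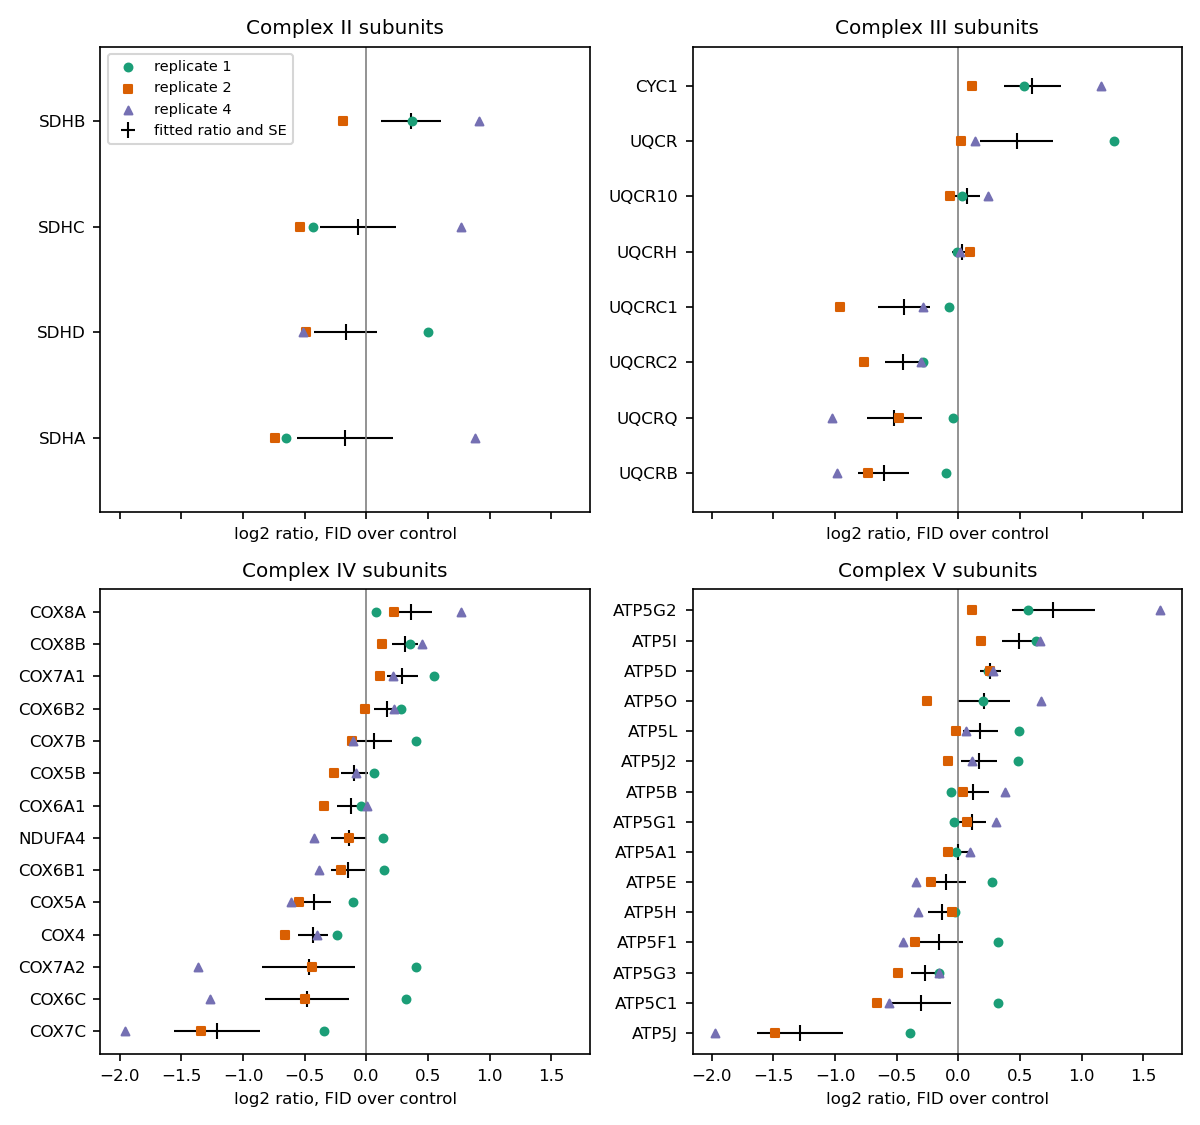
Log2 ratio of FID over control (horizontal axis) of the tested subunits of complexes II, III, IV and V, ordered by fitted ratio within each panel, with coloured points for replicates 1, 2 and 4 and a black bar for the fitted ratio and its standard error. COX7C at -1.21 and ATP5J at -1.29 stand below the other subunits of their complexes, and the SDHA and SDHC points of replicate 4 lie across 0 from the other 2 replicates.

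The symbol rule also matched 3 assembly factors of complex I, which help build the enzyme and are not part of it. NDUFAF4 had a level of 8.86, 9.05 and 8.37 in FID cells, against 10.40, 10.26 and 10.34 in control cells. The groups lay more than 1 log2 unit apart, and the ratio was -1.57 ± 0.18, or 2.97-fold lower, on 6 of 6 arrays, with limma's adjusted p at 0.0520 and the block fit's at 0.00158. It missed the threshold by little, and its ratio was the lowest of all 84 tested members. NDUFAF3, which acts with NDUFAF4 in the same early step of assembly, had 12.90, 12.35 and 12.56 in FID cells, against 12.30, 12.05 and 11.54 in control cells. Its ratio was 0.64 ± 0.17 (adjusted p = 0.136, block fit 0.0456), so these partners lay on opposite sides of 0. NDUFAF1 had -0.08 ± 0.15. All 3 were chosen for description after their values were seen.

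NDUFA4L2, a paralogue of NDUFA4 known to be induced in hypoxia, had a level of 8.26, 7.79 and 8.02 in FID cells, against 7.45, 7.39 and 7.32 in control cells. The groups did not overlap, and the ratio was 0.64 ± 0.12 (adjusted p = 0.0859, block fit 0.0317). NDUFA4 itself had -0.14. COX7A2L, which joins complexes III and IV into supercomplexes, had 0.26 ± 0.11, with a probe of the other sign among its 3. ATP5S, now DMAC2L, had 0.17 ± 0.26. COX4NB, now EMC8, is a neighbour of COX4 that belongs to a membrane protein complex of the endoplasmic reticulum, and had 0.00 ± 0.20.

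Assembly factors outside the symbol rule were listed separately, and the list had a median ratio of -0.31 over 24 tested genes, against 0.01 over all genes. All 3 replicates were below 0 for 13 genes and above 0 for 6, where each share was 25.0% of all genes. In limma 0 passed, where 2.36% of all genes did. At an unadjusted p under 0.05, 9 were lower and 2 higher, where all genes gave 16.1% and 12.5%. In the block fit 7 were lower and 1 higher, where all genes gave 11.9% and 8.85%. The genes named next were chosen after their values were seen. TMEM70, an assembly factor of complexes V and I, had -1.86 ± 0.30, with -1.14, -1.89 and -2.55 in the replicates (adjusted p = 0.0719, block fit 0.00247). TMEM126A and TMEM126B, which build the membrane arm of complex I, had -1.69 ± 0.26 and -1.57 ± 0.33. COX11, which delivers copper to complex IV, had -1.12 ± 0.21, and BCS1L, which inserts the Rieske protein into complex III, had -1.07 ± 0.20.

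SDHAF2, which attaches the flavin to SDHA, had -0.76 ± 0.09, with -0.87, -0.66 and -0.76 (adjusted p = 0.0547). Unlike SDHA, it had 1 sign in the 3 replicates. COX19, which takes part in copper delivery to complex IV, lay on the other side at 1.01 ± 0.16, with 0.79, 0.87 and 1.37 (adjusted p = 0.0678, block fit 0.00379). The list thus spread more widely than the subunits, with an SD over genes of 0.74 against 0.45. Over all tested genes the SD was 0.61, between these values.

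**Figure D5:**
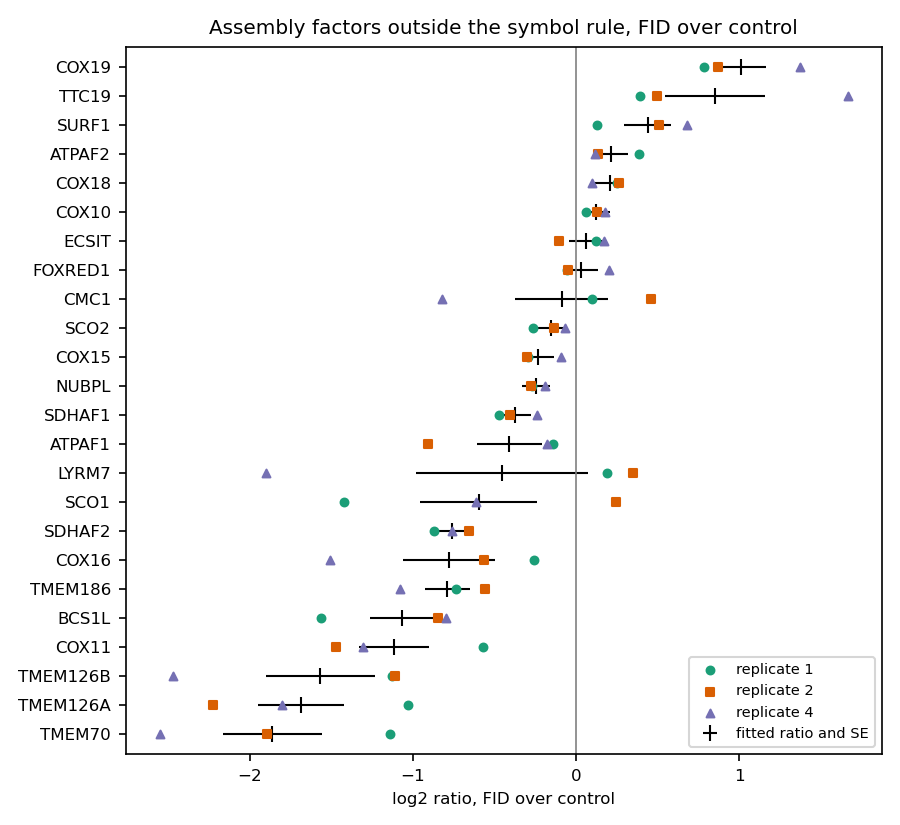
Log2 ratio of FID over control (horizontal axis) of 24 assembly factors outside the symbol rule, ordered by fitted ratio, with coloured points for replicates 1, 2 and 4 and a black bar for the fitted ratio and its standard error. TMEM70, TMEM126A and TMEM126B lie lowest, between -1.86 and -1.57, and COX19 highest at 1.01.

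Genes that feed electrons into the chain were described from lists. Enzymes of the citric acid cycle and pyruvate dehydrogenase had a median of -0.42 over 15 tested genes, with 11 below 0. In limma 0 passed, where 2.36% of all genes did. At an unadjusted p under 0.05, 3 were lower and 1 higher, where all genes gave 16.1% and 12.5%. In the block fit 2 were lower and 1 higher, where all genes gave 11.9% and 8.85%. CS, citrate synthase, had 0.30 ± 0.21, with -0.21, 0.44 and 0.68. Chosen after their values were seen, DLD, a component shared by several dehydrogenases, had -1.28 ± 0.23, and OGDH, the first component of the oxoglutarate dehydrogenase that also uses DLD, had 1.78 ± 0.33. Electron carriers and other entry points had a median of -0.23 over 8 tested genes. Set beside the same shares of all genes, 0 passed, 2 were lower and 0 higher at an unadjusted p under 0.05. In the block fit 1 was lower. CYCS, cytochrome c, had -0.31 ± 0.14, with 0.02, -0.48 and -0.46.

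Regulators of mitochondrial biogenesis and of mitochondrial DNA had a median of -0.17 over 15 tested genes. In limma 0 passed, where 2.36% of all genes did. At an unadjusted p under 0.05, 5 were lower and 2 higher, where all genes gave 16.1% and 12.5%. In the block fit 3 were lower and 2 higher, where all genes gave 11.9% and 8.85%. TFAM, which packs mitochondrial DNA, had -0.17 ± 0.12, NRF1, a transcription factor of respiratory chain genes, had 0.22 ± 0.31, and PPARGC1A, the coactivator PGC-1 alpha, had 0.11 ± 0.10. PPARGC1A is itself known as a gene that cyclic AMP induces in liver and muscle, and its replicates here were 0.25, 0.08 and -0.01. The TFAM and PPARGC1A probes were dim, with mean log2 intensities of 6.76 and 7.20. For TFAM the FID signal cleared the negative controls 3 times in 6 and the control signal 4 times. For PPARGC1A each signal did so 5 times. Ratios of such dim probes are compressed towards 0, so these values do not show that either gene was unchanged.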

How the data were processed

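Per the file headers, the scanner files held each channel's raw spot intensity beside its local background, which had not been subtracted. The authors also deposited log2 ratios, with a normalization not stated in the labels or files. The deposited ratios ran as Cy5 over Cy3 against the ratios normalised here from the scanner intensities (slopes 0.970 to 1.00). This was read over 5058 bright probes, with log2 intensity above 10 on all arrays. The column medians of the deposited ratios were -0.0185 to -0.00285. How these ratios were centred is unknown, and they served as an alternative. With limma 3.58.1 in R 4.3.3, marked spots (13 to 88 per array) were dropped, intensities were corrected by normexp (offset 50) and normalised by loess with control spots at weight 0, and signs were turned on the 3 arrays with FID in Cy3. Dye swap arrays were averaged, leaving 3 ratios per probe, which were fitted with lmFit and eBayes and adjusted by Benjamini-Hochberg over 32192 probes. A probe was tested if it exceeded the 95th percentile of the negative controls on at least 4 of 6 arrays of a condition. A gene took its brightest tested probe; 32 member genes had several, and in 8 of them 1 or more probes had the other sign. Levels were set between arrays by Aquantile.

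Same-numbered arrays carry the same replicate's RNA, per the labels' titles and the stated dye swaps, and their ratios correlated at 0.55 to 0.80. Arrays of different replicates correlated at 0.56 to 0.61 in the same dye orientation and at 0.33 to 0.46 in opposite orientations. The replicate 1 pair, at 0.55, thus lay below arrays that shared only the orientation. The replicate block fit used the 6 arrays with a dye term and a within-replicate correlation of 0.607. The number of arrays limits the precision, with 2 residual and 1.86 prior degrees of freedom. The background correction, loess, averaging of dye swap arrays and limma fit were run on simulated data with known ratios. The filter on dim probes, the choice of probe, Aquantile, the block fit and the complex medians were not.

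Named genes were those past the threshold, the 3 highest and 3 lowest subunits of each complex, and a list of standard members. Some other genes were described after their values were seen. Members and lists were chosen with earlier results of these data known. Of 85 symbols, 66 were current in RefSeq and 19 were renamed. Alternatives covered the background correction, normalization, dim probe filter, dye, probe choice, and leaving out each replicate.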

Additional observations from a re-analysis of the deposited data

Results flagged for a closer look

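In 7 of the 84 tested members the ratio had one sign on all 3 arrays with FID in Cy5 and the other sign on all 3 arrays with FID in Cy3. The difference between the orientations was not tested. The mean ratio with FID in Cy5 minus that with FID in Cy3 was 1.00 for COX7B and 0.298 for ATP5A1. It was -0.919 for NDUFS7, -0.856 for ATP5D, -0.725 for NDUFA10, -0.665 for NDUFA8 and -0.356 for NDUFA13. The mean of both orientations, used in the report, cancels such a dye effect, and the fitted ratios of these genes lay between -0.03 and 0.30. None of the 7 passed in limma or in the block fit.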

How the results depend on the processing

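The number of calls depended on the processing far more than the ratios did. With all else as reported, 558 probes and 1 respiratory chain gene passed. No probe and no member passed with marked spots kept, without background correction or with the authors' deposited ratios (0 and 0 each), and without any 1 replicate both counts were 0 to 0. Calls numbered 1061 probes and 2 members with offset 16, 980 and 2 among probes above background on all arrays, 1675 and 2 on arrays with FID in Cy5, and 2320 and 4 on arrays with FID in Cy3. With the replicate block, 5190 probes and 11 members passed, and this fit counts both dye swap arrays. Median centring called 2 members, and moved the median of all subunits to -0.29, of complex I to -0.49 and of complex V to -0.071. On arrays with FID in Cy5, complex III had -0.065 and complex V -0.10. The median of complexes I, III and IV stayed below 0 in every setting run, that of complexes II and V changed sign in 3 settings each, and complex V stayed above complex I by 0.19 to 0.42. Of 673 single gene values under alternatives, 14 passed the threshold where the reported value had not, 6 no longer did, and 19, in 11 genes, had the other sign. Other alternatives gave no change in these counts beyond 1.5 times. With 3 replicates and dim probes compressed towards 0, small differences were not detectable.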

Other observations

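Carriers and proteins that work beside the ATP synthase had a median ratio of 0.07 over 8 tested of 10 listed genes, and the sign of this median changed in 3 of 15 alternative settings. In limma 0 passed, 1 was lower and 1 higher at an unadjusted p under 0.05, and 0 passed in the block fit. Over all genes 16.1% were lower and 12.5% higher at that p, and 20.8% passed in the block fit. ATPIF1, the inhibitor of the ATP synthase, had -0.58 ± 0.18, with -0.14, -0.77 and -0.84 in replicates 1, 2 and 4. The adenine nucleotide carriers, which exchange ADP and ATP across the inner membrane, lay on both sides of 0, with -0.31 ± 0.18 for SLC25A5, 0.41 ± 0.13 for SLC25A4 and 0.68 ± 0.26 for SLC25A6. UCP2, an uncoupling protein, had -0.05 ± 0.08. These genes were chosen after their values were seen.

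PRODH, a proline oxidising enzyme that feeds electrons to ubiquinone, had 3.60 in replicate 2 and -0.15 and 0.13 in replicates 1 and 4. The oocyte markers had a median of 3.30 in replicate 2, against 0.94 and 0.10 in replicates 1 and 4. Without replicate 2 the median of the oocyte list was 0.53. Of the other marker lists, stroma and theca had a median of -0.25 over 8 tested genes, with PDGFRA at -2.09 ± 0.14 and LUM at -1.49 ± 0.14 past the threshold. DCN was not past the threshold, but like them it lay below -0.5 and was lower in the block fit. In that fit 3 of the 8 genes were lower, where all genes gave 11.9%. COL3A1 (0.29 ± 0.52), COL1A2 (0.13 ± 0.30), INSL3 (0.03 ± 0.08) and CYP17A1 (-0.03 ± 0.11) lay near or above 0, and COL1A1 had -1.66, -0.16 and 0.38 in the replicates. The list median was 0.06 without replicate 1, -0.57 without replicate 4 and -1.49 over the 3 genes above background on all arrays. The list had a summed level of 2975 to 4107 in FID and 7818 to 10352 in control. Blood and immune markers had 0.19 over 10 tested of 13 and endothelial markers 0.15 over 4 of 5. The part of these cells in the ratios of the respiratory chain was not tested.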
